A study of Homo sapiens with 12 samples.

Results

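The 33 genes described here encode proteins that sense, signal or repair DNA damage. They were taken from a list of names, and that list was drawn up with earlier results of these data known. It held 4 damage kinases, 2 mediators of the break response, the 3 subunits of the MRN complex and 9 genes of homologous recombination. The others were 2 RecQ helicases, 4 Fanconi anaemia genes, 4 genes of end joining and 5 genes of excision and mismatch repair. All 33 were found among the 63152 genes of the count table, and all 33 passed the filter on low counts and were among the 16839 genes tested. They were measured by poly-A RNA sequencing in cultures labelled HepG2, a human hepatoblastoma line. The sample descriptions name HepG2S1, a derivative of HepG2 that had become resistant to the kinase inhibitor sorafenib under rising doses over several months, so all 3 groups share that selection and come from 1 derived line. The groups were controls, cells given 2.5 µM acriflavine and cells given 5 µM acriflavine, each for 24 h and each with 4 libraries that the labels call biological replicates. One label calls the controls untreated, whereas the protocol describes the vehicle DMSO. Acriflavine, a mix of acridine dyes, slides between the bases of DNA.

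Cells answer a broken DNA end with a relay. The MRN complex binds the end and activates the kinase ATM, while single-stranded DNA at a stalled replication fork activates ATR, and these pass the signal to the kinases CHEK2 and CHEK1, which hold the cell cycle. The break is then joined directly by the Ku proteins, DNA-PK and ligase IV, or copied from the sister chromatid by homologous recombination. Crosslinks between the strands go to the Fanconi anaemia pathway, nicks and damaged bases to PARP1, XRCC1 and the ligases, and mispaired bases to mismatch repair. Many of these genes are transcribed more in cells that replicate their DNA, where transcription factors of the E2F family bind short words in their promoters.

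The RefSeq promoter windows of the genes (GRCh38.p14, 250 bases before to 50 after the start of the gene) were searched for 4 words of the E2F type, TTTCCCGC, TTTCGCGC, TTTGCCGC and TTTGGCGC, on both strands. The sequences are RefSeq's. A window was found for 28 of the 33 genes, and NBN, WRN, FANCI, XRCC5 and PRKDC had no entry. The words stood in 7 of these 28 windows (25.0%), which were those of LIG1, FANCA, FANCD2, EXO1, MSH6, XRCC2 and XRCC6. Of all 35116 windows 3.31% held one, and of the 10701 tested genes with a window 6.54% did. A match is a run of letters and was not tested as a binding site. The 4 stretches printed here belong to 2 genes that fell at both doses, 1 called in opposite directions at the 2 doses and 1 that rose at 5 µM. Each is written 5′ to 3′ on the strand of the gene, with the word, or its reverse complement, in capitals.
LIG1, minus strand, chr19:48170421-48170488, word 114 bases before the start: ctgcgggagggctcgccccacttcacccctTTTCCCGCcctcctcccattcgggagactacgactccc
FANCA, minus strand, chr16:89816782-89816849, word 172 bases before the start: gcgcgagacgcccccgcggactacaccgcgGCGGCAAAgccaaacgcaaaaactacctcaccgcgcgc
FANCD2, plus strand, chr3:10026405-10026442, word from 2 bases before the start: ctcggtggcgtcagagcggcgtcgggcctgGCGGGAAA
EXO1, plus strand, chr1:241848178-241848215, word from 4 bases after the start: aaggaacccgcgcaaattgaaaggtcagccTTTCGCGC
The genes with a word did not share a direction. LIG1 and FANCA were lower at both doses, FANCD2 was higher at 2.5 µM, at the threshold and lost in 17 of 21 alternative settings, and lower at 5 µM, EXO1 was higher at 5 µM, and MSH6, XRCC2 and XRCC6 did not pass the test at 5 µM against control.

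Levels are given in CPM, the counts of a gene scaled to the size of its library. Library totals ran from 10733567 to 15116842 counts, and every library resembled the other libraries of its group more than those of any other group (Pearson's r of log2 values over genes from 0.992 to 0.994 within groups and from 0.901 to 0.972 between them). The markers of the labelled cell type were largely missing. Of 11 hepatocyte markers, 4 had 0 counts in the controls, ALB, AFP and FOXA2 among them, and 10 were under 1 CPM there, the exception being FOXA1 at 10.0 CPM. The summed level of those markers was 10.0 to 13.0 CPM in the controls, 12.5 to 13.9 CPM at 2.5 µM and 16.5 to 19.5 CPM at 5 µM. Of 6 fibroblast markers DCN stood at 563 CPM and LUM at 119 CPM in the controls, COL1A2 and COL3A1 had 0 counts there, and the summed level was 619 to 769, 548 to 605 and 557 to 599 CPM in the 3 groups in the order of dose. The 5 endothelial markers summed to at most 0.537 CPM in a control and to 7.13 to 8.69 CPM at 5 µM, with PECAM1 and KDR at 0 counts in the controls, and the 5 blood markers to at most 0.513 and to 2.06 to 2.78 CPM, with CD3E at 0. The part of these markers in the results on repair genes was not tested. In bulk RNA, fewer cells of a type and less RNA per cell cannot be told apart.

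At 5 µM the repair genes were lower more often than higher. By edgeR's quasi-likelihood test with Benjamini-Hochberg adjustment over all tested genes, 20 of the 33 fell and 6 rose against the controls at an adjusted p under 0.05. Of all tested genes 39.4% fell and 38.7% rose in that comparison. The median log2 fold change of the 33 was −0.47, against −0.01 over all tested genes. A fall of at least 1.5-fold was called for 13 of the 33 (22.9% of all tested genes) and a rise of that size for 3 (24.2% of all tested genes). The values of the 4 libraries at 5 µM and the 4 controls did not overlap for 26 of the 33. This also held for most tested genes (70.8%), so the count is not particular to the repair genes. The summed level of the 33 genes was 4268 to 4434 CPM in the controls, 4069 to 4122 CPM at 2.5 µM and 3392 to 3522 CPM at 5 µM, with no overlap between any 2 groups. That sum leans on the genes with the highest levels, PARP1, XRCC5, PRKDC and XRCC6, at 693, 516, 490.1 and 440.5 CPM in the controls. It does not describe every gene of the set.

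The lower dose gave a smaller and more even picture. At 2.5 µM 13 of the 33 fell (28.5% of all tested genes) and 9 rose (30.7% of all tested genes), with a median log2 fold change of −0.11 against 0.02 over all tested genes. A fall of at least 1.5-fold was called for 4 genes, NBN, LIG1, FANCG and FANCA (10.4% of all tested genes), and the largest rise was that of MDC1, at 0.54 on the log2 scale. From 2.5 to 5 µM 21 fell (34.8% of all tested genes) and 8 rose (33.6% of all tested genes), with a median of −0.33. The 3 comparisons share groups and are not independent of each other. With 2.5 µM as the middle dose, its mean lay between the other means for 21 genes, above both for 8 and below both for 4. ATM, ATR, CHEK2, TP53BP1, NBN, WRN, FANCA, PARP1, LIG3 and LIG1, 10 genes, passed the test as lower in all 3 comparisons, and MDC1 and XRCC1 as higher in all 3. The shares of all tested genes with these orders of means and these calls were not computed. Whether the counts differ from those shares is therefore not known.

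**Figure D1:**
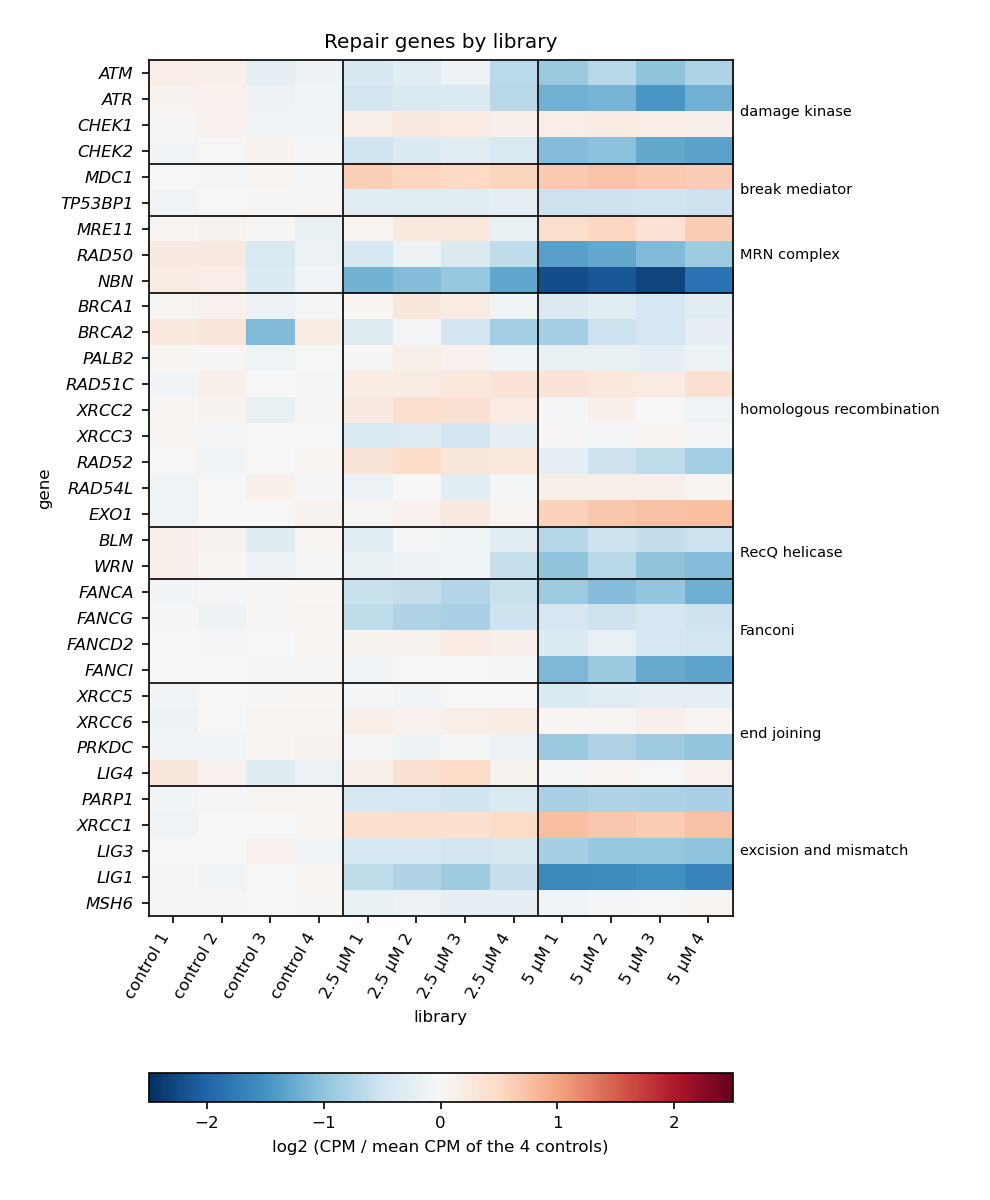
The 33 repair genes (rows, by role) in each of the 12 libraries (columns), coloured by the log2 ratio of the CPM to the mean CPM of the 4 controls (blue lower, red higher). NBN and LIG1 are the darkest blue at 5 µM, MDC1 and XRCC1 are red at both doses, and BRCA2 in control 3 stands apart from the other controls.

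Of the 4 damage kinases, ATM, ATR and CHEK2 fell at both doses and CHEK1 rose at both. Of all tested genes 28.5% fell and 30.7% rose at 2.5 µM, and 39.4% fell and 38.7% rose at 5 µM. ATM, the kinase that answers double-strand breaks, stood at 83.4, 81.2, 63.3 and 68.0 CPM in controls 1 to 4. At 2.5 µM it stood at 55.9, 61.0, 68.2 and 46.6 CPM, and at 5 µM at 38.7, 46.0, 37.0 and 43.2 CPM. Controls 3 and 4 lay within the range of the 2.5 µM libraries, while all 5 µM values lay below all controls. The log2 fold change was −0.36 ± 0.12 (SE, n = 4 against 4) at 2.5 µM (edgeR adjusted p = 0.0168) and −0.85 ± 0.12 at 5 µM (edgeR adjusted p = 1.74e-05). Without control 2 the call for ATM at 2.5 µM was lost (edgeR adjusted p = 0.0539). NPAT overlaps exons of ATM on the other strand and also fell at 5 µM (log2 fold change −0.34 ± 0.09). Reads of that overlap cannot be assigned.

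ATR, the kinase of stalled forks, fell further than ATM. It stood at 75.2, 76.1, 65.2 and 67.3 CPM in the controls, at 51.5, 55.0, 55.3 and 44.2 CPM at 2.5 µM and at 30.7, 31.8, 25.8 and 30.9 CPM at 5 µM. The 3 groups did not overlap. ATR had a log2 fold change of −0.47 ± 0.07 at 2.5 µM (edgeR adjusted p = 1.26e-06) and of −1.25 ± 0.08 at 5 µM (edgeR adjusted p = 4.28e-16), the latter being 2.39-fold. The 2 effector kinases parted. CHEK2, which acts after ATM, stood at 43.2, 45.4, 48.3 and 43.9 CPM in the controls, at 31.9, 35.8, 37.6 and 34.7 CPM at 2.5 µM and at 21.2, 22.3, 18.7 and 17.8 CPM at 5 µM. The groups of CHEK2 did not overlap either, and it was 2.27-fold lower at 5 µM (log2 fold change −1.18 ± 0.08, edgeR adjusted p = 1.08e-15). CHEK1, which acts after ATR, stood at 100.5, 107, 94.1 and 95.1 CPM in the controls, at 109.9, 116, 114 and 108 CPM at 2.5 µM and at 112, 112, 111 and 109 CPM at 5 µM. Every treated library of CHEK1 lay above every control, by a log2 fold change of 0.18 ± 0.05 at 2.5 µM (edgeR adjusted p = 0.00289) and of 0.16 ± 0.05 at 5 µM (edgeR adjusted p = 0.00413), and between the doses the difference was −0.01 ± 0.05 (edgeR adjusted p = 0.805). The mRNA of the upstream kinase ATR was thus lower in the same libraries in which that of its effector CHEK1 was higher. STT3A overlaps exons of CHEK1 on the same strand and fell at 2.5 µM (−0.15 ± 0.05) and at 5 µM (−0.36 ± 0.05). How reads of that overlap were counted is not given, so they cannot be assigned.

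**Figure D2:**
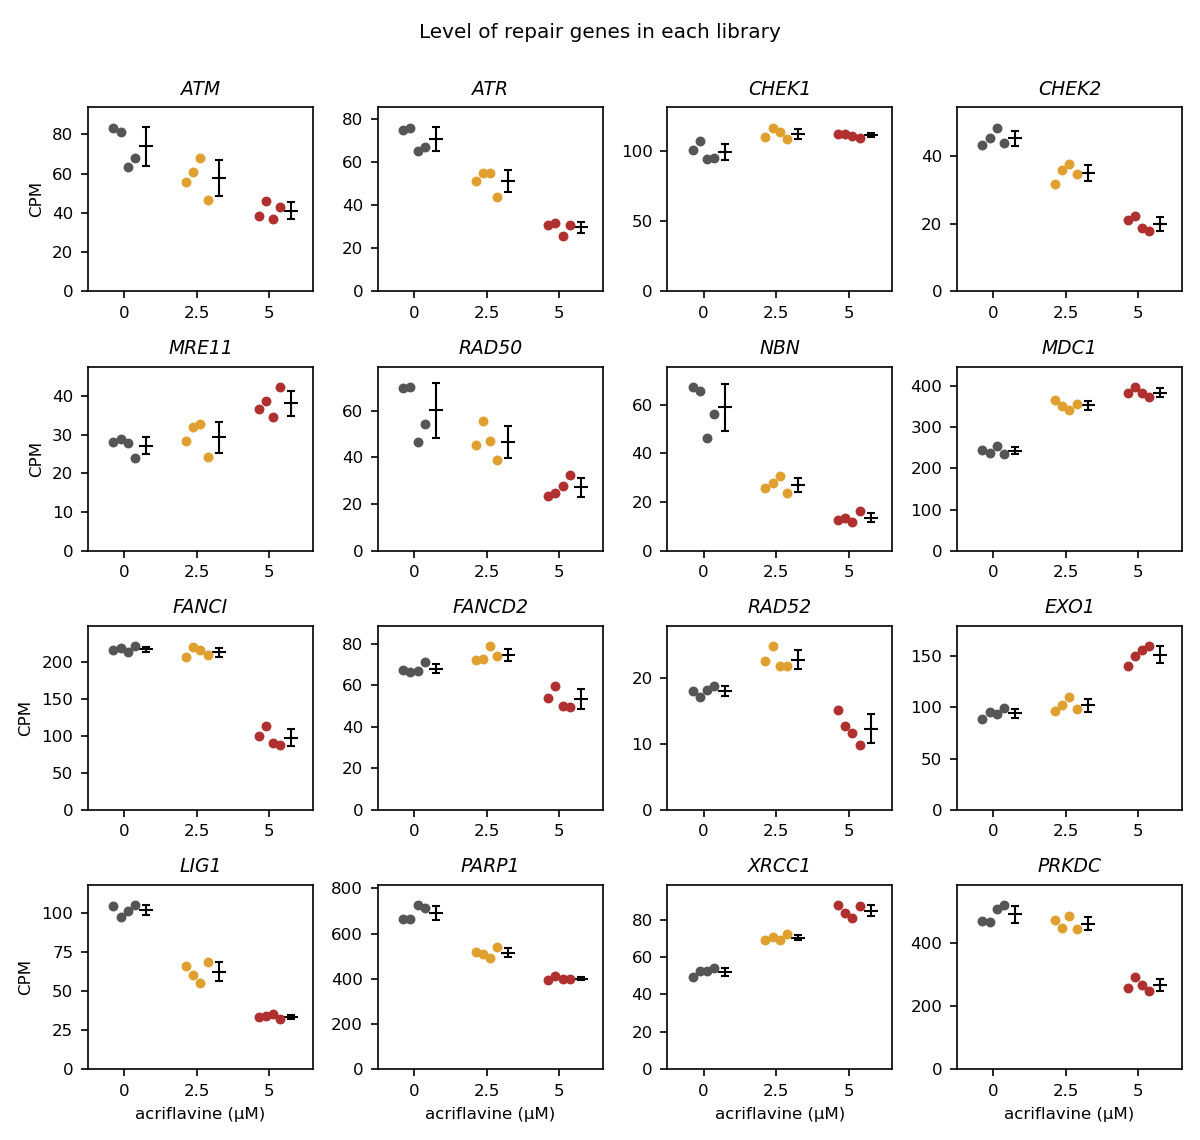
CPM of 16 repair genes in each library (dots), by acriflavine dose, with mean ± SD of the 4 libraries beside them; each axis starts at 0. ATR, CHEK2 and LIG1 step down at each dose without overlap, FANCI is level up to 2.5 µM and falls at 5 µM, and RAD52 and FANCD2 are highest at 2.5 µM.

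Both mediators of the break response changed, and in opposite directions (39.4% of all tested genes fell and 38.7% rose at 5 µM). MDC1, the scaffold that binds phosphorylated histone H2AX, was at 243 ± 8.34 CPM (SD, n = 4) in the controls, 354 ± 10.7 CPM at 2.5 µM and 384 ± 10.4 CPM at 5 µM, and rose 1.58-fold at 5 µM (log2 fold change 0.66 ± 0.04, edgeR adjusted p = 1.03e-15). The step between the doses, 0.12 ± 0.04 (edgeR adjusted p = 0.0124), was lost without 2.5 µM replicate 3 (edgeR adjusted p = 0.0651). TP53BP1, a chromatin reader that limits the trimming of broken ends, was at 202 ± 6.04, 168 ± 1.80 and 141 ± 1.37 CPM in the same order and fell by 0.52 on the log2 scale at 5 µM (SE 0.04, edgeR adjusted p = 8.13e-13). TUBGCP4 overlaps exons of TP53BP1 on the other strand and was also lower at 5 µM (log2 fold change −0.77 ± 0.05). The counting's use of strand is not given in the sources used here, so reads of the overlap cannot be assigned.

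The MRN complex is made of MRE11, its nuclease, RAD50, its ATPase, and NBN, the subunit that brings in ATM, and the 3 mRNAs moved apart. NBN had the lowest log2 fold change of the 33 genes at both doses. It stood at 67.3, 65.9, 46.2 and 56.2 CPM in the controls, at 26.0, 27.9, 30.7 and 23.9 CPM at 2.5 µM and at 12.7, 13.4, 11.9 and 16.4 CPM at 5 µM. No 2 groups overlapped. NBN had a log2 fold change of −1.12 ± 0.11 at 2.5 µM (edgeR adjusted p = 1.55e-07) and of −2.11 ± 0.12 at 5 µM (edgeR adjusted p = 3.31e-11), which is 4.31-fold. RAD50 stood at 69.8, 70.1, 46.5 and 54.2 CPM in the controls, at 45.3, 55.4, 47.1 and 39.0 CPM at 2.5 µM and at 23.5, 24.9, 27.8 and 32.6 CPM at 5 µM. For RAD50 controls 3 and 4 lay within the range of the 2.5 µM libraries, and only at 5 µM was every treated value below every control (log2 fold change −1.14 ± 0.16, edgeR adjusted p = 5.16e-05). At 2.5 µM RAD50 missed the threshold (−0.37 ± 0.15, edgeR adjusted p = 0.0572), a call gained in 8 of the 21 alternative settings, among them those without control 3 and without 2.5 µM replicate 2 (edgeR adjusted p = 0.00403 and 0.0216). MRE11 went the other way, from 27.2 ± 2.29 CPM in the controls and 29.3 ± 3.92 CPM at 2.5 µM to 38.2 ± 3.26 CPM at 5 µM, and rose at the higher dose (log2 fold change 0.49 ± 0.09, edgeR adjusted p = 5.23e-06).

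Divided by the length of their exons, the 3 subunits changed order. In the controls NBN was at 9.57 CPM per kb of exon, RAD50 at 6.16 and MRE11 at 3.54. At 5 µM MRE11 was at 4.97 CPM per kb, RAD50 at 2.79 and NBN at 2.21. The ordering rests on exon lengths joined over all transcripts of a gene in GENCODE 29, which need not be the transcripts these cells make. A pseudogene copy, MRE11P1, was counted at 5.93 CPM in the controls and also rose at 5 µM (0.59 ± 0.12), so the split of reads between it and MRE11 is uncertain. ANKRD49, which overlaps MRE11 on the other strand, did not pass the test at 5 µM (−0.17 ± 0.12, edgeR adjusted p = 0.194).

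**Figure D3:**
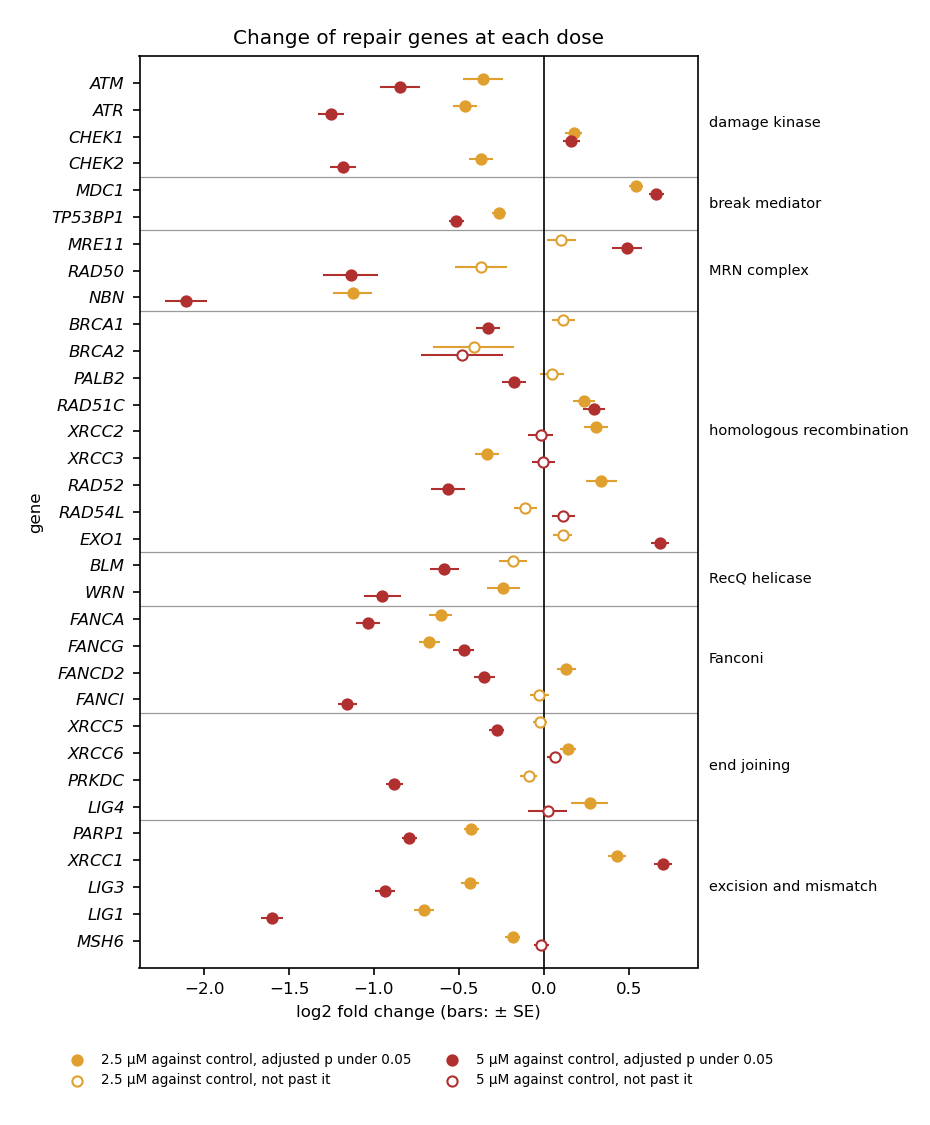
Log2 fold change of each repair gene against the controls at 2.5 µM (orange) and 5 µM (red) with ± SE bars; filled points passed an adjusted p of 0.05, open points did not. NBN, at −2.11, and LIG1, at −1.60, lie farthest to the left at 5 µM, and MRE11 lies on the other side of 0 from RAD50 and NBN.

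Of the 9 genes of homologous recombination, 2 were higher, 3 lower and 4 not past the threshold at 5 µM, where 38.7% of all tested genes were higher and 39.4% lower. EXO1, the exonuclease that trims broken ends and also serves mismatch repair, rose most. It was at 94.4 ± 4.52 CPM in the controls, 102 ± 6.09 CPM at 2.5 µM and 151 ± 8.46 CPM at 5 µM, a 1.61-fold rise at the higher dose (log2 fold change 0.68 ± 0.05, edgeR adjusted p = 1.25e-13). RAD51C, which acts in strand exchange, rose at both doses, by 0.24 ± 0.06 and 0.29 ± 0.07 on the log2 scale (edgeR adjusted p = 0.00224 and 0.00013). XRCC2 and XRCC3, which act beside it, differed from the controls in opposite directions at 2.5 µM and were near the control level at 5 µM. XRCC2 was at 33.2 ± 2.66, 41.2 ± 3.17 and 32.9 ± 2.37 CPM in the order of dose, and rose by 0.31 ± 0.07 at 2.5 µM (edgeR adjusted p = 0.000502). XRCC3 was at 34.1 ± 1.19, 27.0 ± 2.12 and 34.0 ± 1.30 CPM, and fell at 2.5 µM (−0.33 ± 0.07, edgeR adjusted p = 0.000119). At 5 µM neither passed the test (edgeR adjusted p = 0.817 for XRCC2 and 0.977 for XRCC3), and the sign of both small differences changed with the scaling of the libraries.

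RAD52, which anneals single strands, rose at the lower dose and fell at the higher. It stood at 18.1, 17.2, 18.2 and 18.9 CPM in the controls, at 22.6, 24.9, 21.9 and 21.8 CPM at 2.5 µM and at 15.2, 12.7, 11.6 and 9.87 CPM at 5 µM. All libraries at 2.5 µM lay above and all at 5 µM lay below the controls. The log2 fold change of RAD52 was 0.34 ± 0.09 at 2.5 µM (edgeR adjusted p = 0.00204), −0.56 ± 0.10 at 5 µM (edgeR adjusted p = 5.93e-06) and −0.90 ± 0.10 between the doses (edgeR adjusted p = 5.88e-10). BRCA1, a ubiquitin ligase subunit of the pathway, was at 86.5 ± 6.57, 93.8 ± 10.8 and 68.9 ± 4.15 CPM, and fell at 5 µM (−0.33 ± 0.07, edgeR adjusted p = 0.000135). PALB2, which bridges BRCA1 and BRCA2, fell at 5 µM (−0.18 ± 0.07, edgeR adjusted p = 0.0271). That call for PALB2 was lost in 7 of the 21 alternative settings, among them those without control 1 and without 5 µM replicate 3 (edgeR adjusted p = 0.0666 and 0.0640). RAD54L, a motor of strand exchange, did not pass the test at either dose (0.11 ± 0.07 at 5 µM, edgeR adjusted p = 0.123). LRRC41 overlaps RAD54L on the other strand and rose at 5 µM (1.25 ± 0.05).

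BRCA2, a mediator of strand exchange, had the lowest level of the 33 genes and did not pass the test. It stood at 7.03, 7.33, 2.77 and 6.77 CPM in the controls, at 4.84, 5.77, 4.32 and 3.29 CPM at 2.5 µM and at 3.30, 4.12, 4.47 and 5.19 CPM at 5 µM. Control 3 lay below every other library of any group. The log2 fold change of BRCA2 at 5 µM was −0.48 ± 0.24 (edgeR adjusted p = 0.0794), and without control 3 it was −0.72 (edgeR adjusted p = 0.000133). With all controls kept, BRCA2 passed the threshold at 5 µM without the low count filter, with the robust option off and without 2.5 µM replicate 4 (edgeR adjusted p = 0.00245, 0.0327 and 0.0441). At 2.5 µM the values were −0.41 ± 0.24 (edgeR adjusted p = 0.146) and, without control 3, −0.66 (edgeR adjusted p = 0.000634), and without the low count filter it passed as well (edgeR adjusted p = 0.0182). The counts summed over 4 libraries were 301, 251 and 229 in the order of dose, which made it the gene with the fewest reads of the set.

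The lowest value of a group fell to different libraries for different genes. Of the controls, control 3 held it for 13 of the 33 genes, control 1 for 11, control 2 for 6 and control 4 for 3. At 2.5 µM replicates 1 to 4 held it for 5, 3, 10 and 15 genes, and at 5 µM for 9, 1, 8 and 15. ATM, ATR, CHEK1, RAD50, NBN, BRCA1, BRCA2, PALB2, XRCC2, WRN and LIG4 were lowest both in control 3 and in 2.5 µM replicate 4. Over all tested genes, deviations from the group mean in these 2 libraries correlated at 0.17, the highest value of any pair from 2 groups. The median coefficient of variation of the 33 genes was 5.79% in the controls, 6.86% at 2.5 µM and 5.58% at 5 µM.

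Both RecQ helicases, which unwind structures formed during recombination and replication, fell at 5 µM (39.4% of all tested genes fell). BLM, the gene of Bloom syndrome, was at 28.8 ± 3.61, 25.5 ± 2.05 and 19.2 ± 1.12 CPM in the order of dose, a log2 fold change of −0.59 ± 0.09 at 5 µM (edgeR adjusted p = 2.27e-07). At 2.5 µM BLM missed the threshold (−0.18 ± 0.08, edgeR adjusted p = 0.0601) and passed it in 6 of the 21 alternative settings, among them those without control 3 and without 2.5 µM replicate 2 (edgeR adjusted p = 0.00229 and 0.0340). WRN, the gene of Werner syndrome, was at 18.2 ± 1.43, 15.5 ± 2.18 and 9.47 ± 1.15 CPM, and fell 1.93-fold at 5 µM (−0.95 ± 0.11, edgeR adjusted p = 1.02e-09). Its call at 2.5 µM (−0.24 ± 0.10, edgeR adjusted p = 0.0386) was lost without control 1, without control 2 and without 2.5 µM replicate 4 (edgeR adjusted p = 0.12, 0.0768 and 0.19).

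All 4 Fanconi anaemia genes fell at 5 µM (39.4% of all tested genes fell), along different courses. The pathway runs from a core complex, to which FANCA and FANCG belong, to the clamp of FANCD2 and FANCI, which the core complex marks with ubiquitin. FANCA stood at 52.3, 54.3, 56.6 and 57.2 CPM in the controls, at 37.7, 36.3, 33.2 and 37.4 CPM at 2.5 µM and at 29.8, 25.9, 28.3 and 23.7 CPM at 5 µM. The groups did not overlap, and FANCA had log2 fold changes of −0.61 ± 0.07 and −1.04 ± 0.07 at the 2 doses (edgeR adjusted p = 2.38e-09 and 3.78e-15). FANCG was at 76.0 ± 4.53, 47.6 ± 4.39 and 54.8 ± 1.97 CPM in the order of dose, lower than the controls at both doses and higher at 5 than at 2.5 µM (0.20 ± 0.06, edgeR adjusted p = 0.00607).

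The partners of the clamp did not follow the core complex at 2.5 µM. FANCI stood at 216, 218, 213 and 221 CPM in the controls and at 207, 219.8, 216 and 209 CPM at 2.5 µM, 2 overlapping ranges with a log2 fold change of −0.03 ± 0.05 (edgeR adjusted p = 0.695). At 5 µM FANCI stood at 99.2, 113, 90.8 and 87.0 CPM, far below both other groups (−1.16 ± 0.06 against control, edgeR adjusted p = 1.17e-18). POLG, on the other strand at the FANCI locus, was also lower at 5 µM (−0.74 ± 0.06). FANCD2 stood at 67.4, 66.3, 67.0 and 71.1 CPM in the controls, at 72.4, 72.7, 78.8 and 74.1 CPM at 2.5 µM and at 53.9, 59.9, 50.3 and 49.7 CPM at 5 µM. Its fall at 5 µM (−0.35 ± 0.06, edgeR adjusted p = 3.07e-06) was called in every alternative setting. Its rise at 2.5 µM (0.13 ± 0.06, edgeR adjusted p = 0.0483) was at the threshold and was lost in 17 of the 21, including each setting without 1 of the libraries except the one without control 4.

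Of the 4 genes of end joining, 2 fell at 5 µM and 2 did not pass the test, where 39.4% of all tested genes fell and 38.7% rose. PRKDC, the catalytic subunit of DNA-PK, was at 490.1 ± 26.7 CPM in the controls and 461 ± 19.4 CPM at 2.5 µM and dropped to 266 ± 19.2 CPM at 5 µM (−0.88 ± 0.05, edgeR adjusted p = 2.80e-17). Its neighbour MCM4, a subunit of the replicative helicase read from the other side of the same start region, fell at 5 µM too (−0.83 ± 0.05). XRCC5, which encodes Ku80, fell from 516 ± 16.6 to 425 ± 14.3 CPM at 5 µM (−0.28 ± 0.04, edgeR adjusted p = 3.97e-07). XRCC6, which encodes its partner Ku70, was at 440.5 ± 27.5, 486 ± 12.3 and 460.4 ± 14.3 CPM in the order of dose. XRCC6 rose at 2.5 µM (0.14 ± 0.04, edgeR adjusted p = 0.00717), a call lost without control 1 (edgeR adjusted p = 0.0571), and did not pass the test at 5 µM (0.06 ± 0.05, edgeR adjusted p = 0.191). Its pseudogene copy XRCC6P2 was counted at 172 CPM in the controls and at 171.5 CPM at 5 µM, so an uncertain share of the reads of XRCC6 lies on copies. LIG4, the ligase of end joining, was at 11.7 ± 2.1, 14.2 ± 1.93 and 11.9 ± 0.584 CPM. The rise of LIG4 at 2.5 µM (0.27 ± 0.11, edgeR adjusted p = 0.0362) was lost without control 3 or 4 and without 2.5 µM replicate 2 or 3 (edgeR adjusted p = 0.217, 0.106, 0.105 and 0.146).

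Among the genes of excision and mismatch repair the ligases and PARP1 fell at both doses while XRCC1 rose. LIG1, the ligase that seals Okazaki fragments and excision patches, stood at 104, 97.3, 101 and 105 CPM in the controls. It stood at 65.6, 60.3, 54.9 and 68.4 CPM at 2.5 µM and at 33.2, 33.8, 35.2 and 32.1 CPM at 5 µM. The 3 groups were far apart, with log2 fold changes of −0.71 ± 0.06 at 2.5 µM (edgeR adjusted p = 2.99e-12) and −1.60 ± 0.06 at 5 µM (edgeR adjusted p = 1.36e-21), and the latter is 3.03-fold. LIG3, the ligase that partners XRCC1, was at 89.4 ± 5.18, 66.1 ± 1.09 and 46.9 ± 2.4 CPM and fell 1.91-fold at 5 µM (−0.93 ± 0.06, edgeR adjusted p = 1.64e-16). PARP1, the sensor of nicks, had the highest CPM of the set in the controls and was at 693 ± 31.6, 515 ± 19.2 and 400.2 ± 7.28 CPM (−0.79 ± 0.04 at 5 µM, edgeR adjusted p = 1.12e-17). The pseudogene PARP1P1 followed it (−0.82 ± 0.06), and the reads of PARP1 and its copies may be split between them.

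XRCC1, the scaffold on which LIG3 and PARP1 meet at a nick, had the largest rise of the 33 genes at 5 µM. It was at 52.1 ± 2.11, 70.3 ± 1.48 and 84.8 ± 3.10 CPM in the order of dose, a log2 fold change of 0.43 ± 0.05 at 2.5 µM and of 0.70 ± 0.05 at 5 µM (edgeR adjusted p = 2.42e-08 and 8.06e-14), with every group above the one before. MSH6, which recognizes mispaired bases, fell slightly at 2.5 µM (−0.18 ± 0.04, edgeR adjusted p = 0.000591) and stood at 240.1 ± 10.7 CPM at 5 µM against 243 ± 6.35 CPM in the controls (−0.01 ± 0.04, edgeR adjusted p = 0.768).

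Per kb of exon, the set spanned a wide range of levels in the controls. These levels too rest on exon lengths joined over all transcripts of a gene, so the order of genes depends on that divisor. XRCC6 was highest at 134 CPM per kb, followed by PARP1 at 96.6 and XRCC5 at 94.5, and then by PRKDC at 31.8 and MDC1 at 30.1. BRCA2 was lowest at 0.487 CPM per kb, below LIG4 at 2.67, ATM at 3.09 and WRN at 3.23. Of the kinases, CHEK1 at 15.1 CPM per kb stood above CHEK2 at 10.1, ATR at 5.68 and ATM at 3.09, and at 5 µM the gap had widened to 16.9 for CHEK1 against 4.45, 2.39 and 1.72 CPM per kb. Genes with a longer span on the chromosome tended to lower log2 fold changes at 5 µM within the set (Pearson's r = −0.38, Spearman's rho = −0.46 across 33 genes of the same libraries). Exon length gave similar values at 5 µM (r = −0.35, rho = −0.41), so the 2 lengths are not separated. At 2.5 µM the values for span were weaker (r = −0.14, rho = −0.24). Over 16492 tested genes with a known span r was 0.04 at 5 µM. These correlations are across genes, which are not independent replicates.

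**Figure D4:**
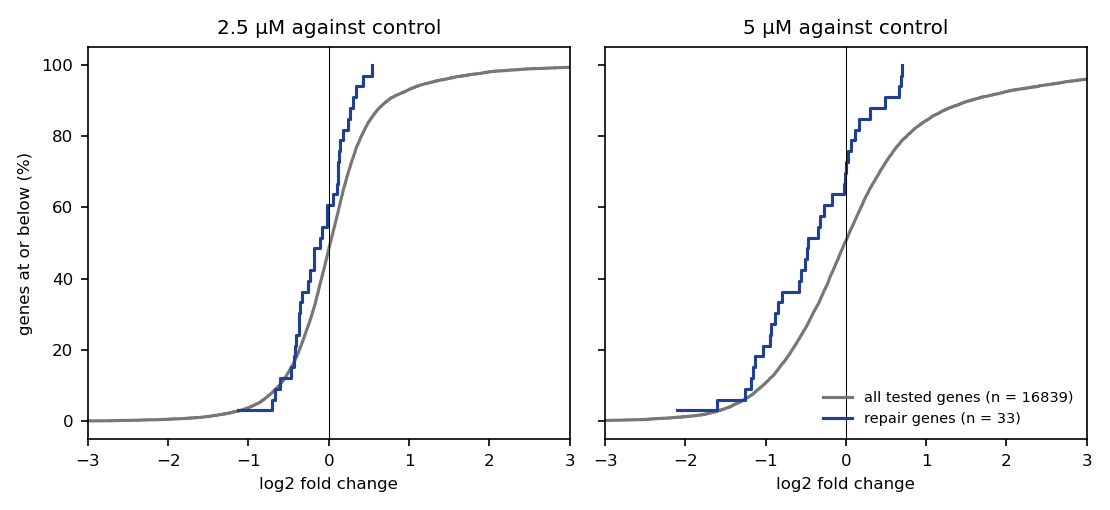
Share of genes at or below each log2 fold change against the controls (cumulative, %), for the 33 repair genes (blue) and all 16839 tested genes (grey), at 2.5 µM (left) and 5 µM (right). At 5 µM the blue curve is shifted left, with a median of −0.47 against −0.01, and ends at 0.70, where the grey curve goes on.

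The wider repair pathways were read from 8 lists of other genes, 138 in all, of which 136 were tested. At 5 µM 75 of these fell and 36 rose (39.4% and 38.7% of all tested genes), with a median log2 fold change of −0.25. At 2.5 µM 54 fell and 36 rose (28.5% and 30.7% of all tested genes), with a median of −0.05. The counts of each single list are to be read against these same shares. Of 6 other mismatch repair genes 5 fell at 5 µM, and PMS2, named after its value was seen, did not pass the test. MSH3, which recognizes looped-out bases, fell from 40.0 ± 1.46 to 15.1 ± 1.41 CPM (−1.40 ± 0.08), with MLH3 at −0.60 ± 0.09 and PMS1 at −0.63 ± 0.13. Of 22 other genes of base excision and single-strand break repair 14 fell and 6 rose. The 3 with the smallest p were NTHL1 (−2.13 ± 0.10), OGG1 (−1.47 ± 0.09) and NEIL2 (−1.83 ± 0.12), each a glycosylase that cuts out damaged bases. Of 10 other tested genes of end joining 6 fell and 1 rose, with PAXX at −1.27 ± 0.08, POLM at −1.55 ± 0.12 and DCLRE1C at −1.05 ± 0.10.

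Of 26 other genes of homologous recombination 14 fell and 7 rose at 5 µM. RAD51D, which works in a complex with RAD51C and XRCC2, fell from 24.4 ± 1.63 CPM in the controls to 6.94 ± 0.532 CPM at 2.5 µM and 4.16 ± 0.948 CPM at 5 µM (−2.53 ± 0.12), whereas RAD51C rose. The nuclease and helicase DNA2 fell (−1.73 ± 0.10) and so did ABRAXAS1, a partner of BRCA1 (−2.17 ± 0.18). Of 13 other Fanconi genes 6 fell and 4 rose, with FAAP100 at −1.72 ± 0.08, FANCL at −1.25 ± 0.07 and FAN1 at −1.02 ± 0.06. Of 15 genes of translesion synthesis and direct reversal 10 fell and 3 rose, with ALKBH2 at −1.29 ± 0.07, POLI at −0.92 ± 0.11 and MGMT at −0.52 ± 0.07. The checkpoint list was even, with 8 of 21 higher and 8 lower. In it the fork protector TIMELESS fell (−1.41 ± 0.05) and so did TELO2 (−1.26 ± 0.07), a chaperone of ATM and ATR, while PPM1D, a phosphatase that ends the damage signal, rose from 22.0 ± 0.996 to 48.8 ± 2.36 CPM (1.15 ± 0.07).

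Nucleotide excision repair, the pathway of bulky lesions, had 12 genes lower and 7 higher of 23 at 5 µM (39.4% and 38.7% of all tested genes), and 6 lower and 10 higher at 2.5 µM (28.5% and 30.7% of all tested genes). DDB2, which finds the lesion in chromatin, rose from 60.6 ± 3.62 CPM to 132 ± 6.61 CPM at 2.5 µM and 167 ± 5.29 CPM at 5 µM (1.46 ± 0.05). GTF2H3, a subunit of TFIIH, fell (−1.01 ± 0.06). Markers of the cell cycle moved in these libraries as well. Of 24 S phase genes 16 fell and 3 rose at 5 µM, with RRM2 at −1.45 ± 0.04, MCM4 at −0.83 ± 0.05 and GINS4 at 0.89 ± 0.05. Of 20 mitosis genes 8 fell and 5 rose at 5 µM and 2 fell and 12 rose at 2.5 µM, with PRC1 at 1.09 ± 0.04, BUB1B at −0.74 ± 0.05 and BUB1 at 0.63 ± 0.05 at 5 µM. The part of these cell cycle genes in the results on repair genes was not tested.

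**Figure D5:**
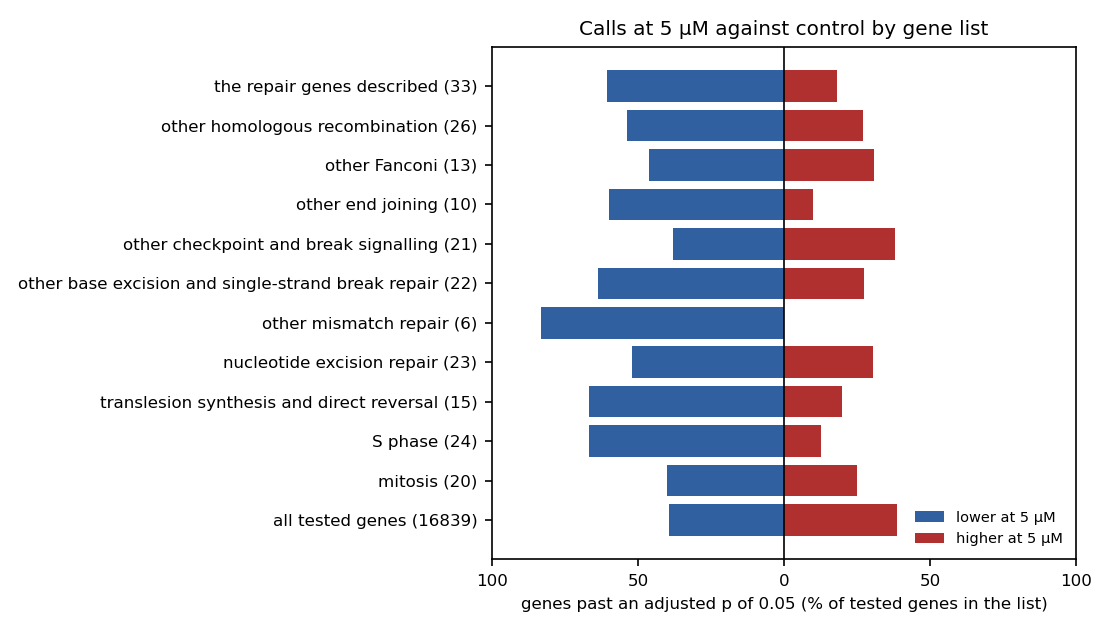
Share of the tested genes of each list that fell (blue, to the left) or rose (red, to the right) at 5 µM against control at an adjusted p under 0.05, with the number tested in brackets. The repair lists reach from 8 of 21 lower (checkpoint) to 5 of 6 lower (mismatch repair), beside 39.4% lower and 38.7% higher over all tested genes.

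Genes that share a start region or exons with a repair gene were looked up in GENCODE 29. Only where exons overlap is the assignment of reads uncertain, since the settings of the counting are not given. Exons of ATR, BRCA1, FANCA, LIG3, MSH6 and RAD52 also overlap those of other tested genes, so their reads carry the same uncertainty. HSCB, on the other strand at CHEK2, rose at 5 µM (1.37 ± 0.09) where CHEK2 fell, and NBR1 rose (0.47 ± 0.05) where BRCA1, read from the same start region, fell. DCTN5 rose (0.33 ± 0.05) beside the fall of PALB2. NPAT, which shares the start region of ATM and overlaps its exons on the other strand, fell (−0.34 ± 0.09) as ATM did. KLC1, on the other strand at XRCC3, fell (−0.72 ± 0.10) where XRCC3 did not pass the test. TEX14 rose from 0.141 to 3.49 CPM beside RAD51C. Neighbours thus moved both with and against the repair genes.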

How the data were processed

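Poly-A mRNA of 12 cultures was sequenced, 4 for each of 3 groups. The authors deposited 1 table of raw read counts per Ensembl gene. Per the submitters' processing notes, the build was GRCh37 and the tools were edgeR 3.8.6, bedtools 2.17.0, STAR 2.4.1d, featureCounts 1.4.6, Cufflinks 2.1.1, cutadapt 1.7.1, SAMtools 1.1 and Bowtie2 2.2.4, named without their roles. The annotation release, the strand setting and the handling of reads with several matches: none of these is given in the sources used here. Symbols came from a list of current names by Ensembl ID, and from GENCODE 29 where that list lacked the ID. Exon lengths and neighbours came from GENCODE 29, which is on another build than the counts. The only coordinates given are those of the RefSeq promoter stretches.

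Of the 63152 genes, 32171 had 0 counts in every library, and 0 rows named no gene. Genes were filtered with filterByExpr and tested with edgeR 4.0.16 in R 4.3.3 (TMM, robust quasi-likelihood fit, 12 libraries in 1 fit, 9 residual degrees of freedom). Benjamini-Hochberg adjustment ran over all 16839 genes tested, with a threshold of 0.05. CPM values use TMM-scaled totals and are given as mean ± SD (n = 4). The SE of a log2 fold change is its size divided by the square root of F. Counts at this depth gave a biological coefficient of variation of 5.43%. Only the quasi-likelihood test of 5 µM against control was checked on simulated counts, in which few genes changed. The other steps were not checked in that way, nor was the scaling where most genes change. The p-values measure the spread between libraries that the labels call biological replicates.

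The members and the lists were chosen with earlier results of these data known, and they are described by counts and medians without a test of the list. All 33 genes are named. Values of every library are given for genes with a log2 fold change of at least 1 in size at 5 µM, those called in opposite directions at the 2 doses and the 4 kinases, and BRCA2 was added after its values were seen. Of each other list at most the 3 genes with the smallest p at 5 µM are named, and some are not reported here; neighbouring genes were chosen after their values were seen. The 21 alternatives covered the scaling (RLE, upper quartile, library size), the filter, the tool (DESeq2 1.42.0) and the robust option. They also covered the samples in the fit, the replicate block and leaving out each library.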

Additional observations from a re-analysis of the deposited data

Results flagged for a closer look

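A library far from the other libraries of its group was looked for in each of the 33 genes and 3 groups by Dixon's ratio of the gap to the range, at its 95% critical value for 4 values. Chance alone would mark about 1 in 20 of the 99 sets of 4 values, and 2 were marked. BRCA2 stood at 2.77 CPM in control 3, where the other controls lay between 6.77 and 7.33 CPM (a ratio of 0.877). WRN stood at 12.2 CPM in 2.5 µM replicate 4, where the other libraries of that dose lay between 16.2 and 16.9 CPM (a ratio of 0.854). The effect of leaving out these libraries is given with each gene, and the cause was not tested.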

How the results depend on the processing

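Over the 21 alternatives no count of called genes moved by more than 1.5 times. At 5 µM against control 19 to 21 repair genes were lower and 6 to 9 higher, at 2.5 µM 11 to 16 lower and 7 to 10 higher, and between the doses 19 to 21 lower and 7 to 9 higher. Of the 33 genes, 25 kept direction and call in every alternative at 5 µM, 20 at 2.5 µM and 26 between the doses. Scaling by library size alone moved the median of all genes at 5 µM from −0.01 to 0.12. The same-numbered libraries did not deviate together (correlations over genes from −0.13 to 0.07), nor did every library correlate best with its own number. The highest correlation was that of 2.5 µM replicate 4 with control 3 (0.17). With a replicate block 20 repair genes were lower and 6 higher at 5 µM, 13 and 8 at 2.5 µM and 20 and 8 between the doses, the calls lost being those of FANCD2 at 2.5 µM (adjusted p = 0.0655) and LIG4 between the doses (adjusted p = 0.0614). All genes whose sign turned had missed the threshold in the main analysis.

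At 5 µM against control the log2 fold change of XRCC2 turned to 0.010 with RLE scaling, 0.029 with upper quartile, 0.11 with library size and 0.0055 with DESeq2. That of XRCC3 turned to 0.027, 0.046, 0.13 and 0.022 with these, to 0.0048 with a filter of 1 CPM in 4 libraries and to 0.016 with only the 2 groups compared. That of MSH6 turned to 0.015, 0.034, 0.12 and 0.010 with the scalings and DESeq2, and to 0.0040 with only the 2 groups. With library size scaling MSH6 passed the threshold as higher (edgeR adjusted p = 0.0107). At 2.5 µM library size scaling turned FANCI to 0.019 and XRCC5 to 0.024. Between the doses CHEK1 turned to 0.023 with RLE, 0.039 with upper quartile, 0.075 with library size, 0.0018 with the 1 CPM filter and 0.013 with DESeq2, and library size turned BRCA2 to 0.023 and XRCC6 to 0.012.

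Leaving out each library in turn gave ranges that include 0 for XRCC2 (−0.098 to 0.014), XRCC3 (−0.030 to 0.015), LIG4 (−0.086 to 0.12) and MSH6 (−0.043 to 0.0038) at 5 µM, for PALB2 (−0.0075 to 0.088) at 2.5 µM, and for CHEK1 (−0.030 to 0.0025) and BRCA2 (−0.20 to 0.065) between the doses. The cause of these turns was not tested. BRCA2 had the fewest counts and passed the threshold at 5 µM in 4 of the 21 alternatives, 1 of them without control 3. RAD54L and XRCC6 passed the threshold at 5 µM as higher with upper quartile and library size scaling.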
